A study of Tupaia belangeri chinensis with 36 samples.

Results

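The ventricular zone (VZ) and the cortical plate (CP) of the fetal Chinese tree shrew (Tupaia belangeri chinensis) at embryonic day 28 (E28) were compared in the 4 libraries whose labels give that age and one of these layers, out of 36 in the series. There were 2 VZ and 2 CP libraries, numbered replicate 1 and 2 in the labels. Layers were cut from Nissl-stained sections of fetal cortex by laser capture, and poly-A RNA was sequenced. The study describes its replicates in general as biological, but the labels do not say whether these came from separate animals. The p-values use a spread estimated over all 18 groups of layer and stage in the model, not from these 4 libraries alone. That spread may be technical.

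The VZ lines the lateral ventricle and holds the dividing apical progenitors, the radial glia, whose nuclei move between the ventricle and the outer edge of the zone as they pass through the cell cycle. The CP receives the postmitotic excitatory neurons that radial glia and intermediate progenitors give rise to, and there they extend axons and form synapses. In bulk RNA of a layer, fewer cells of a type and less RNA per cell cannot be told apart.

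The annotation used by the authors lists 76871 features. Of these, 21043 carry a TSDBGID number, for which no gene symbol was paired here, 31776 a name of the form LINC-SYMBOL-n, 22595 a name of the form SYMBOL-AS-n (antisense) and 1457 an NA name. Gene symbols were therefore read only from LINC and antisense names. Such a name gives the gene that the transcript was named after and is no measure of that gene's own mRNA. How LINC names were assigned and whether reads were counted by strand are not given in the sources used here, so for antisense features the reads of a gene and of its antisense partner cannot be told apart.

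The 4 libraries held between 24378435 and 40226474 counts on features, and 98.08% to 98.52% of these fell on TSDBGID features. LINC features took 0.7894% and 0.8671% of the counts in the VZ and 0.8059% and 0.8705% in the CP, and antisense features took 0.685% and 0.8767% in the VZ and 0.8399% and 1.043% in the CP, so that both classes overlapped between the layers. The table of VZ replicate 2 was also deposited, value for value, as replicate 2 of the VZ at E42. It was kept here under its E28 label, the E42 copy was left out of the model, and the numbers of all features and of LINC and antisense features called at E28 are also given without it. Across the 26858 features tested, the level in this table (log2 CPM, where CPM is the count scaled to the normalized library size) had a Pearson's r of 0.989 with VZ replicate 1 of E28 and of 0.959 with VZ replicate 1 of E42, a description over features that share a library.

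Of the 26858 features that passed the filter on low counts, 3697 were higher (13.8%) and 3579 lower (13.3%) in the VZ than in the CP at a Benjamini-Hochberg adjusted p under 0.05 in edgeR's quasi-likelihood test, together 27.1% of those tested. The TSDBGID features supplied 3329 of the higher and 2906 of the lower ones (39.2% of 15911 tested). Among LINC features 176 were higher (4.49%) and 239 lower (6.09%), together 10.6% of 3922, and among antisense features 187 were higher (2.7%) and 424 lower (6.13%), together 8.84% of 6914. LINC and antisense features together were called lower more often than higher, at 6.12% and 3.35% of 10836 (9.47% in all), whereas TSDBGID features were called higher in 20.9% and lower in 18.3%. Counts were much lower for the symbol-bearing classes, with a median of 10 counts per LINC and 18 per antisense feature summed over the 4 libraries, against 1675 per TSDBGID feature. Without VZ replicate 2, 2978 features were higher and 2868 lower. Of these, 235 LINC and antisense features were higher and 427 lower. The LINC and antisense counts were 284 and 361 without VZ replicate 1, 191 and 564 without CP replicate 1, and 210 and 495 without CP replicate 2.

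Among called LINC and antisense features, no count was seen in either CP library for 147 of the 363 higher ones and none in either VZ library for 191 of the 663 lower ones. For these a fitted fold change depends on the prior count that edgeR adds, so a lower bound is given instead, computed against 3 counts over the group without counts. With these features at their bound, the median log2 fold change of the higher features was 3.50 and that of the lower features −3.28, compared with 1.81 and −2.03 for TSDBGID features. These medians cover called features alone. With few counts a feature passes only at a large fold, so they do not show that the classes differ in size of change.

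**Figure D1:**
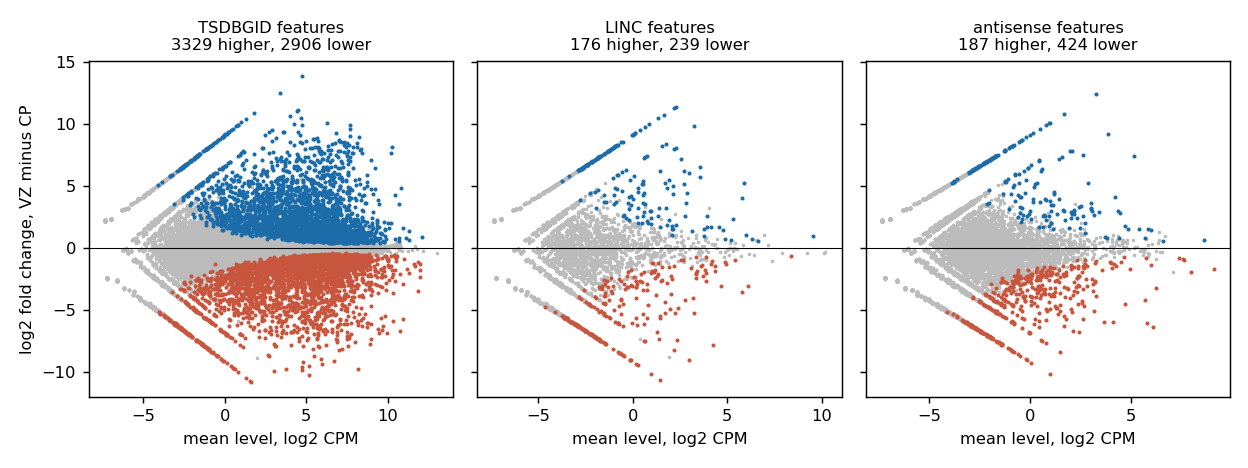
Log2 fold change between the VZ and the CP at E28 (VZ minus CP, vertical axis) against the mean level over the 4 libraries (log2 CPM, horizontal axis) for TSDBGID, LINC and antisense features with a count in these libraries. Blue points were called higher and red points lower in the VZ, grey points were not called, and the outer diagonal lines are features with no count in one layer; called antisense features lie mostly below 0 (187 higher, 424 lower).

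The layer labels were checked with 12 genes chosen for this purpose, 8 of which had at least 1 tested feature. No feature named after EOMES, HES5, NEUROG2 or TBR1 was tested. SOX2 encodes a transcription factor that keeps neural progenitors in the dividing state. LINC-SOX2-3 stood at 8.07 and 9.77 CPM in the VZ libraries and at 0 and 0.0541 CPM in the CP libraries. The VZ libraries were both far above the CP libraries, which held 2 counts between them (VZ to CP ratio 277, 95% counting interval 76.4 to 2290, adjusted p = 3.1e-07). LINC-SOX2-2 stood at 6.35 and 2.97 CPM in the VZ and at 0.82 and 0.189 CPM in the CP, a log2 fold change of 3.25 ± 0.92 (approximate SE, n = 2 and 2, adjusted p = 0.0088). Here and below, the value after ± is the absolute log2 fold change divided by the square root of the test's F value. It rests on the spread of the whole model, not of these 4 libraries alone. LINC-SOX2-2 was also higher in both VZ libraries, but the call was lost without VZ replicate 1 or CP replicate 2 (adjusted p up to 0.14). The other 4 tested LINC-SOX2 features, at no more than 0.668 CPM in any of the 4 libraries, were not called (adjusted p from 0.08 to 0.98).

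PAX6 is a master regulator of cortical radial glia. PAX6-AS-1 stood at 2.14 and 0.915 CPM in the VZ and had no count in the CP, which makes it at least 29.6-fold higher in the VZ (adjusted p = 0.0011).

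BCL11B and FEZF2 encode factors of deep-layer projection neurons, and DAB1 transmits the Reelin signal in migrating neurons. Of the 6 tested BCL11B features, 1 was called. LINC-BCL11B-7 had no count in the VZ and stood at 0.164 and 0.352 CPM in the CP, at least 6.63-fold lower in the VZ (adjusted p = 0.037), a call that was lost without VZ replicate 1, VZ replicate 2 or CP replicate 2. LINC-FEZF2-1 and LINC-DAB1-7 were not called, with at most 0.615 CPM in a library (adjusted p = 0.31 and 0.15). The 5 tested features of HES1, a Notch target of radial glia, were not called either, and of these LINC-HES1-9 stood at 2.01 and 1.98 CPM in the VZ and at 0.943 and 0.352 CPM in the CP (adjusted p = 0.3).

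RELN is the Reelin gene of Cajal-Retzius cells. RELN-AS-1 and RELN-AS-5 had no count in the 4 libraries and RELN-AS-4 was counted in CP replicate 2 alone, at 0.108 CPM, whereas RELN-AS-5 reached 1.88 and 0.661 CPM in the marginal zone (MZ) libraries of E28. The features of SOX2 and PAX6 that were called were higher in the VZ, the side that the layer labels give.

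Features named after 18 lists of genes were then counted, against the 3.35% of all LINC and antisense features that were higher and the 6.12% that were lower. Features given full statistics from these lists had to be called, with VZ and CP libraries that did not overlap, so that separation is no further result. Over all tested LINC and antisense features, called or not, the libraries did not overlap in 40.4%. Radial glial and progenitor genes had the largest share of higher calls of the 18 lists. Of 102 tested features of this list, 26 were higher in the VZ (25.5%, from 17 genes), 5 were lower (4.9%, from 3 genes) and 71 were not called. The median log2 fold change of the 95 with a count was 3.05, or 1.85 with bounds, against −0.34 over all LINC and antisense features with a count. Without VZ replicate 1, VZ replicate 2, CP replicate 1 and CP replicate 2 in turn, 21, 23, 21 and 17 were higher and 2, 2, 2 and 4 lower.

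SOX1, like SOX2, is a SoxB1 factor of neural progenitors. LINC-SOX1-1 stood at 18 and 20.1 CPM in the VZ and at 0.041 and 0 CPM in the CP, where 1 count was seen (ratio 1180, 95% counting interval 211 to 46500, adjusted p = 9.7e-11). Of 7 tested LINC-SOX1 features, 5 were higher in the VZ and none lower. TNC, which encodes the matrix protein tenascin-C, gave TNC-AS-2, at 1.34 and 6.6 CPM in the VZ and with no count in the CP, at least 88-fold higher (adjusted p = 4e-04). VZ replicate 2 held several times the level of VZ replicate 1. ID4 encodes an inhibitor of differentiation that blocks proneural factors, and LINC-ID4-10 stood at 3.03 and 2.25 CPM in the VZ and at 0 in both CP libraries, at least 53-fold higher (adjusted p = 1e-04).

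The list also held features of genes used as radial glial markers that were called but lay outside the rule for full statistics and were chosen after their values were seen. SOX9-AS-1 stood at 10.4 and 18.2 CPM in the VZ and at 0.246 and 0.46 CPM in the CP, and LINC-HOPX-1 at 27.7 and 18.5 against 0.451 and 0.0811 CPM. SOX9 is a progenitor factor and HOPX a marker of radial glia, in primates of outer radial glia. NES-AS-1, named after the intermediate filament gene nestin, stood at 3.19 and 3.41 CPM in the VZ and at 0.697 and 0.379 CPM in the CP. These 3 were each higher in both VZ libraries.

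Among the 5 lower features of the list were ones named after PTPRZ1, which encodes a receptor phosphatase of radial glia, and HES6, a Hes family member that promotes neuronal differentiation. LINC-PTPRZ1-1 stood at 0.0319 and 0.0247 CPM in the VZ, 2 counts in all, and at 0.902 and 3.68 CPM in the CP (CP to VZ ratio 92.4, 95% counting interval 25.2 to 770, adjusted p = 9.4e-06). LINC-PTPRZ1-1 thus lay on the side opposite to the larger number of the list. LINC-HES6-2 stood at 0.415 and 0.297 against 1.43 and 1.24 CPM (log2 fold change −1.91 ± 0.67, adjusted p = 0.033), and its call was lost when any 1 of the 4 libraries was left out (adjusted p up to 0.19).

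Of 122 tested features named after cell cycle genes, 20 were higher (16.4%, from 17 genes) and 5 lower (4.1%). Leaving out VZ replicate 1, VZ replicate 2, CP replicate 1 and CP replicate 2 in turn left 17, 12, 12 and 10 higher and 1, 2, 4 and 2 lower. CEP55 acts in the final cut of cytokinesis, ANLN encodes the contractile ring protein anillin, and NUF2 a subunit of the kinetochore complex that binds spindle microtubules. CEP55-AS-2 stood at 1.98 and 3.68 CPM and ANLN-AS-2 at 1.98 and 2 CPM in the VZ, and neither had a count in the CP, which makes them at least 60.1-fold (adjusted p = 3.6e-04) and at least 40.7-fold higher (adjusted p = 6.7e-04). LINC-NUF2-1 stood at 5.29 and 8.26 CPM in the VZ and at 0 and 0.027 CPM, 1 count, in the CP (ratio 427, 95% counting interval 76.4 to 16900, adjusted p = 4e-06). All 3 were present in both VZ libraries and at most at 1 count in the CP.

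Among the other higher features of this list were ones named after the mitotic cyclins CCNB1 and CCNB2, the kinesins KIF4A, KIF15 and KIF18A, and the centromere genes CENPF and NDC80. CCNB1-AS-1, chosen after its values were seen, stood at 61.5 and 80.4 CPM in the VZ and at 0.533 and 0.297 CPM in the CP. The 5 lower features were named after BUB1B, CEP170, ORC4 and RRM2B. LINC-RRM2B-1, named after a p53-induced subunit of ribonucleotide reductase, stood at 7.08 and 6.16 CPM in the VZ and at 14.3 and 21.6 CPM in the CP (log2 fold change −1.44 ± 0.30, adjusted p = 3.3e-04). ORC4-AS-2, after a subunit of the origin recognition complex, stood at 6.22 and 14.7 against 18.5 and 32.2 CPM (−1.27 ± 0.44, adjusted p = 0.031), and CEP170-AS-1, after a centrosomal protein, at 0.383 and 0.198 against 1.11 and 2.14 CPM (−2.49 ± 0.84, adjusted p = 0.026). The calls of the last 2 were lost under 4 alternatives each, among them the models without VZ replicate 1 and without CP replicate 2 (adjusted p up to 0.31 and 0.19).

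**Figure D2:**
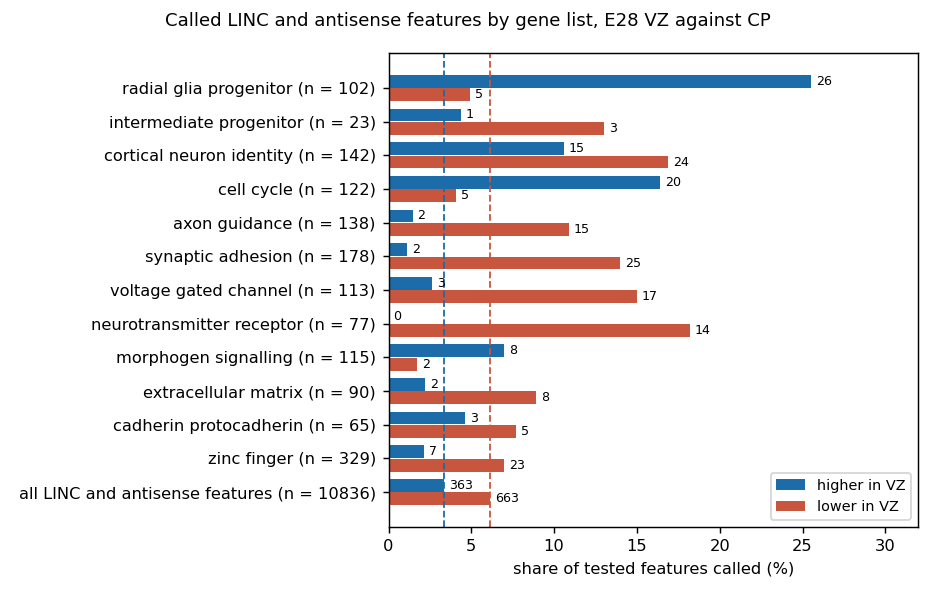
Share of the tested LINC and antisense features of each of the 12 gene lists other than markers of other cells (horizontal axis, percent) that were called higher (blue) or lower (red) in the VZ than in the CP at E28, with the number called at the end of each bar and the number tested in parentheses. Dashed lines mark the shares over all 10836 LINC and antisense features (3.35% higher, 6.12% lower); among these 12 lists, radial glial (25.5%) and cell cycle (16.4%) features had the largest shares of higher calls, and features of neurotransmitter receptors (18.2%) and cortical neuron identity (16.9%) the largest shares of lower calls.

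Genes of cortical neuron identity gave calls on both sides. Of 142 tested features, 24 were lower in the VZ (16.9%, from 16 genes) and 15 higher (10.6%, from 5 genes). With VZ replicate 1, VZ replicate 2, CP replicate 1 and CP replicate 2 left out in turn, 18, 17, 24 and 16 were lower and 15, 12, 8 and 11 higher. SOX11 is a SoxC factor of newborn neurons. LINC-SOX11-14 had no count in the VZ and stood at 1.72 and 9.11 CPM in the CP, at least 148-fold lower in the VZ (adjusted p = 2.6e-07). NEUROD2 is a basic helix-loop-helix factor of excitatory neurons, and LINC-NEUROD2-1 stood at 0.0638 and 0 CPM in the VZ, 2 counts, and at 6.03 and 4.3 CPM in the CP (CP to VZ ratio 179, 95% counting interval 49.1 to 1480, adjusted p = 2.6e-06). HS3ST4 encodes a heparan sulfate sulfotransferase that marks deep-layer neurons, and LINC-HS3ST4-2 stood at 0.0319 and 0.0247 CPM in the VZ and at 4.84 and 13.5 CPM in the CP (ratio 361, 95% counting interval 99.7 to 2990, adjusted p = 5.3e-07). In these features the CP libraries differed from each other by up to several times.

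The higher side of this list was mostly 1 gene. POU3F3 (BRN1) encodes a POU factor that both progenitors and upper-layer neurons use, and of 17 tested LINC-POU3F3 features 10 were higher and none lower. LINC-POU3F3-4 stood at 15.6 and 31.5 CPM in the VZ and at 0.082 and 0.73 CPM in the CP (log2 fold change 5.75 ± 0.74, adjusted p = 5.4e-07). ZEB1 and ZEB2 are related repressors that carry zinc fingers, ZEB1 held in progenitors and ZEB2 used by postmitotic cortical neurons. LINC-ZEB1-1 stood at 4.78 and 5.89 CPM in the VZ and at 0.082 and 0.0541 CPM in the CP (log2 fold change 6.26 ± 0.75, adjusted p = 7.3e-08), and LINC-ZEB1-2 at 1.18 and 2.99 against 0.041 and 0.027 CPM, 2 counts (ratio 67.5, 95% counting interval 18.4 to 562, adjusted p = 1.3e-04). ZEB2-AS-1 lay the other way, at 0.128 and 0.396 CPM in the VZ and at 2.46 and 3.57 CPM in the CP (−3.48 ± 0.76, adjusted p = 6.3e-04).

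Features that carry the same symbol may be parts of 1 transcript, so they are no independent count of genes. Over all genes, 106 had 2 or more called LINC or antisense features, and for 91 of these (85.8%) all called features lay on 1 side. Called features of both kinds, LINC and antisense, were seen for 30 genes, and for 25 of these they lay on 1 side.

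The intermediate progenitor list had 23 tested features, with 1 higher (4.35%) and 3 lower (13%), and with 1 higher and 1 to 3 lower when 1 library was left out. NEUROG1 encodes a proneural factor. NEUROG1-AS-1 stood at 32.6 and 26.1 CPM in the VZ and at 0 and 0.0811 CPM, 3 counts, in the CP (ratio 592, 95% counting interval 202 to 2870, adjusted p = 1.4e-06). The 3 lower ones were named after SSTR2, a somatostatin receptor gene that newborn neurons also express, and CUX2, a gene of upper-layer neurons. LINC-SSTR2-2 stood at 0.574 and 0.569 CPM in the VZ and at 11.1 and 3.84 CPM in the CP (log2 fold change −3.69 ± 0.88, adjusted p = 0.0025).

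**Figure D3:**
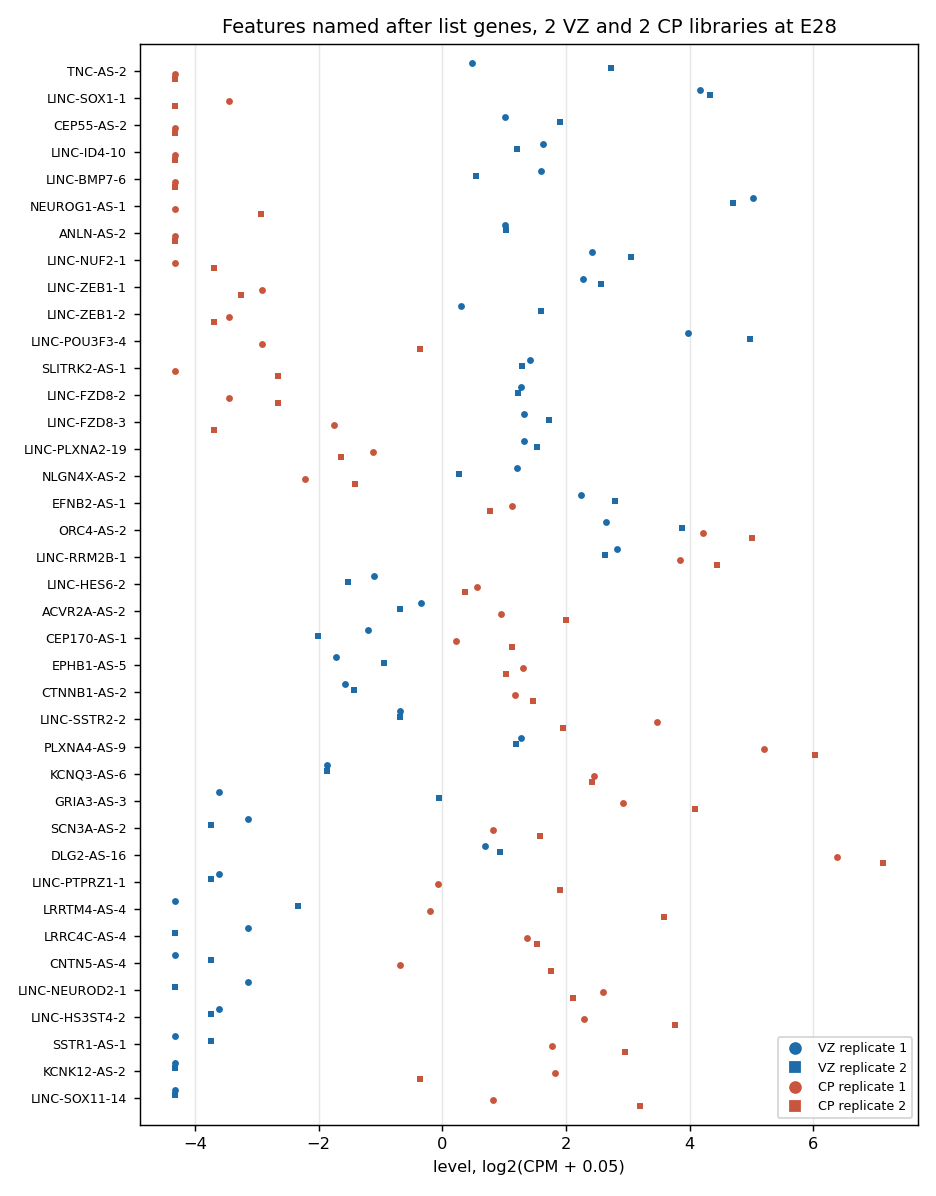
Level of the features reported here that the rule named from 9 gene lists (log2 of CPM + 0.05, horizontal axis) in VZ replicate 1 and 2 (blue circle and square) and CP replicate 1 and 2 (red circle and square) at E28, 1 feature per line and ordered by fold change. Points at the left edge are libraries with no count; in every line both VZ libraries lie on one side of both CP libraries, which the rule required (over all tested LINC and antisense features, called or not, the libraries of the layers did not overlap in 40.4%).

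Features named after genes of axons, synapses and excitability were called lower far more often than higher. Of 178 tested features of synaptic adhesion and scaffold genes, 25 were lower (14%) and 2 higher. Of 113 of ion channels, voltage-gated ones and others such as KCNK12 and KCNJ3, 17 were lower (15%) and 3 higher. Of 77 of neurotransmitter receptors, 14 were lower (18.2%) and 0 higher (2 higher at an unadjusted p under 0.05 and 0 in the DESeq2 Wald test). Of 138 features of axon guidance genes, 15 were lower (10.9%) and 2 higher. The lower counts fell without VZ replicate 1 to 14, 8, 9 and 6, without VZ replicate 2 to 15, 6, 9 and 12 and without CP replicate 2 to 22, 9, 13 and 10, in the order of these 4 lists, and were 22, 16, 12 and 15 without CP replicate 1.

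DLG2 encodes PSD-93, a scaffold of the postsynaptic density. DLG2-AS-16 stood at 1.56 and 1.85 CPM in the VZ and at 83.5 and 140 CPM in the CP, a log2 fold change of −6.03 ± 0.63 (adjusted p = 1.8e-07). LRRTM4 and LRRC4C encode leucine-rich repeat proteins that organize synapses. LRRTM4-AS-4 stood at 0 and 0.148 CPM in the VZ and at 0.82 and 12 CPM in the CP (−6.27 ± 1.42, adjusted p = 0.0014), so that its level in the CP rested mainly on replicate 2, without which the call was lost (adjusted p = 0.071). LRRC4C-AS-4 stood at 0.0638 and 0 CPM, 2 counts, against 2.54 and 2.84 CPM (ratio 97.7, 95% counting interval 26.6 to 813, adjusted p = 0.0025, and 0.052 without VZ replicate 2).

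The 2 higher features of the list were named after further synaptic adhesion genes. SLITRK2-AS-1 stood at 2.62 and 2.4 CPM in the VZ and at 0 and 0.108 CPM in the CP (log2 fold change 5.27 ± 1.06, adjusted p = 2.2e-04). NLGN4X-AS-2, after a neuroligin, stood at 2.26 and 1.16 against 0.164 and 0.325 CPM (2.75 ± 0.72, adjusted p = 0.0037), with the call lost without VZ replicate 1 or CP replicate 1 (adjusted p up to 0.059).

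Among channels, KCNQ3 encodes a subunit of the M-current that damps firing, SCN3A a sodium channel prominent in the fetal brain, and KCNK12 a potassium channel subunit. KCNQ3-AS-6 stood at 0.223 CPM in both VZ libraries and at 5.41 and 5.3 CPM in the CP (log2 fold change −4.56 ± 0.51, adjusted p = 2.5e-08). SCN3A-AS-2 stood at 0.0638 and 0.0247 against 1.72 and 2.95 CPM (CP to VZ ratio 58.9, 95% counting interval 19.8 to 289, adjusted p = 1.2e-05), and KCNK12-AS-2, with no count in the VZ, at 3.48 and 0.73 CPM in the CP (at least 43.7-fold lower, adjusted p = 0.0023). That both VZ libraries lay below the CP in all 3 was required by the rule. The 3 higher features were named after KCNA4, KCNG1 and KCNH7 and each had fewer than 100 counts over the 4 libraries.

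GRIA3 encodes an AMPA receptor subunit and SSTR1 a somatostatin receptor. GRIA3-AS-3 stood at 0.0319 and 0.915 CPM in the VZ and at 7.5 and 16.9 CPM in the CP (log2 fold change −4.64 ± 0.95, adjusted p = 4.2e-04). SSTR1-AS-1 stood at 0 and 0.0247 CPM, 1 count, against 3.36 and 7.73 CPM (ratio 431, 95% counting interval 76.8 to 17100, adjusted p = 2.6e-06). That the CP and VZ libraries did not overlap in either feature was required by the rule.

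PLXNA4 encodes a plexin, a receptor for axon-guiding semaphorins. PLXNA4-AS-9 stood at 2.36 and 2.23 CPM in the VZ and at 37 and 65.3 CPM in the CP (log2 fold change −4.48 ± 0.33, adjusted p = 1.8e-11). CNTN5-AS-4, after a contactin, stood at 0 and 0.0247 CPM, 1 count, against 0.574 and 3.33 CPM (ratio 160, 95% counting interval 28.3 to 6380, adjusted p = 0.0053), and EPHB1-AS-5, after an ephrin receptor, at 0.255 and 0.47 against 2.42 and 2 CPM (−2.58 ± 0.79, adjusted p = 0.013). The 2 higher features of the list were EFNB2-AS-1, after a ligand of such receptors (4.69 and 6.92 against 2.13 and 1.65 CPM, 1.62 ± 0.60, adjusted p = 0.045), and LINC-PLXNA2-19 (2.46 and 2.84 against 0.41 and 0.27 CPM, 2.96 ± 1.11, adjusted p = 0.048). Both higher calls were lost when any 1 of the 4 libraries was left out (adjusted p up to 0.24 for each), that of CNTN5-AS-4 without VZ replicate 1 or CP replicate 2 (up to 0.067) and that of EPHB1-AS-5 without VZ replicate 1 (0.13). LINC features of PLXNA2 lay on both sides, with LINC-PLXNA2-1 and LINC-PLXNA2-5 called lower in the VZ.

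Morphogen signalling genes, of the WNT, BMP and hedgehog pathways that pattern the cortex, had 115 tested features, with 8 higher (6.96%) and 2 lower (1.74%). Without VZ replicate 1, VZ replicate 2, CP replicate 1 and CP replicate 2 in turn, 5, 5, 2 and 4 were higher and 2, 1, 2 and 2 lower. FZD8 encodes a WNT receptor. LINC-FZD8-2 stood at 2.36 and 2.3 CPM in the VZ and at 0.041 and 0.108 CPM in the CP (log2 fold change 4.83 ± 1.27, adjusted p = 0.0038), and LINC-FZD8-3 at 2.46 and 3.24 against 0.246 and 0.027 CPM (4.45 ± 1.16, adjusted p = 0.0038). BMP7 encodes a secreted ligand, and LINC-BMP7-6 stood at 2.97 and 1.41 CPM in the VZ with no count in the CP, at least 42.7-fold higher (adjusted p = 0.0018). These calls were each lost under 1 alternative, without CP replicate 1 for LINC-FZD8-2, without CP replicate 2 for LINC-FZD8-3 and in the DESeq2 Wald test for LINC-BMP7-6 (adjusted p = 0.055, 0.084 and 0.098).

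The lower morphogen features were CTNNB1-AS-2, after beta-catenin, the transducer of WNT signals, at 0.287 and 0.321 against 2.21 and 2.7 CPM (−3.00 ± 0.65, adjusted p = 5.8e-04), and ACVR2A-AS-2, after an activin receptor, at 0.734 and 0.569 against 1.89 and 3.95 CPM (−2.17 ± 0.57, adjusted p = 0.0041). The call of ACVR2A-AS-2 was lost without VZ replicate 2 or CP replicate 2 (adjusted p up to 0.086).

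Extracellular matrix and integrin genes had 90 tested features, with 2 higher (2.22%) and 8 lower (8.89%). Cadherins and protocadherins had 65, with 3 higher (4.62%) and 5 lower (7.69%). These shares were close to those of all LINC and antisense features (3.35% and 6.12%). Leaving out VZ replicate 1, VZ replicate 2, CP replicate 1 and CP replicate 2 in turn, the matrix list kept 2 higher each time with 1, 3, 6 and 5 lower, and the cadherin list had 1, 1, 1 and 0 higher with 2, 2, 4 and 5 lower. ITGB5-AS-3, after an integrin subunit, stood at 1.05 and 2.42 CPM in the VZ and had no count in the CP, at least 37.3-fold higher (adjusted p = 5.4e-05). LINC-ITGAE-1, after another integrin subunit, stood at 2.55 and 3.78 against 15.8 and 18.2 CPM (log2 fold change −2.42 ± 0.27, adjusted p = 2e-08), and the 2 integrin features thus lay on opposite sides.

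Of the cadherins, LINC-CDH4-2 stood at 12.3 and 13.2 CPM in the VZ and at 6.07 and 3.57 CPM in the CP (1.41 ± 0.34, adjusted p = 0.0018, and 0.084 without CP replicate 2). PCDHGB3-AS-2, after a clustered protocadherin, stood at 2.07 and 2.2 against 8.49 and 14.8 CPM (−2.45 ± 0.40, adjusted p = 1.6e-05), and LINC-CDH19-12 at 0.829 and 0.593 against 5.21 and 2.33 CPM (−2.40 ± 0.80, adjusted p = 0.023). The last call was lost under 4 alternatives, the model of E28 libraries alone and those without VZ replicate 1, VZ replicate 2 or CP replicate 1 (adjusted p up to 0.19).

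Zinc finger genes, most of which encode DNA-binding factors, had 329 tested features, with 7 higher (2.13%) and 23 lower (6.99%), shares close to those of all LINC and antisense features. Without VZ replicate 1, VZ replicate 2, CP replicate 1 and CP replicate 2 in turn, 7, 4, 3 and 6 were higher and 9, 17, 22 and 12 lower. LINC-ZFHX4-6 stood at 85.2 and 121 CPM in the VZ and at 2.79 and 9.74 CPM in the CP (log2 fold change 4.02 ± 0.50, adjusted p = 1e-06). ZBTB38-AS-1 stood at 0.0319 and 0.148 against 1.27 and 3.6 CPM (−4.64 ± 0.66, adjusted p = 1.5e-06), and LINC-ZFP809-1 at 0.0957 and 0.346 against 1.6 and 2.41 CPM (−3.13 ± 0.80, adjusted p = 0.003, and 0.064 without VZ replicate 1).

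Over all LINC features, whatever the list, those that the rule named on the VZ side were mostly features of ribosomal protein genes. The rule took features with at least 100 counts and libraries that did not overlap, in the order of a fitted fold that depends on the prior count. LINC-RPL36A-30 stood at 8.71 and 10.5 CPM, LINC-RPL36A-32 at 8.8 and 9.37 CPM and LINC-RPL36A-33 at 4.11 and 3.19 CPM in the VZ, and none had a count in the CP (at least 199-fold, 187-fold and 73.5-fold higher, adjusted p = 1.6e-07, 1.4e-06 and 8.3e-06). Of 15 tested LINC-RPL36A features 10 were higher and none lower, whereas RPL6 features lay on both sides (3 higher and 6 lower of 61 tested). LINC-RPL21-258 stood at 4.05 and 6.11 CPM in the VZ with no count in the CP (at least 107-fold higher, adjusted p = 5.5e-06). Ribosomal protein genes have many near-identical copies between which reads may be split, so these values are uncertain.

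The remaining LINC feature on the VZ side was LINC-VRK1-10, after a chromatin kinase of dividing cells, at 4.88 and 7.67 CPM in the VZ and at 0 in the CP (at least 132-fold higher, adjusted p = 2.5e-07). On the CP side, next to LINC-SOX11-14, were LINC-GPR12-2, after an orphan receptor of the brain (3.48 and 4.3 CPM in the CP, at least 95.2-fold lower in the VZ, adjusted p = 4.3e-09), LINC-RWDD3-8 (1.48 and 3.38 CPM, at least 62.8-fold, adjusted p = 2.6e-07), LINC-PLCL1-8 (0.943 and 3.52 CPM, at least 59.7-fold, adjusted p = 1.3e-07) and LINC-VEGFA-13, after the vascular growth factor (1.43 and 2.22 CPM, at least 45.6-fold, adjusted p = 1.3e-04). None of these 4 had a count in either VZ library. All 4 tested LINC-RWDD3 features were lower in the VZ.

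The same rule over all antisense features named ELP4-AS-3 on the VZ side. ELP4 encodes an Elongator subunit and lies next to PAX6 in vertebrate genomes. ELP4-AS-3 stood at 18.6 and 20.4 CPM in the VZ and had no count in the CP, at least 402-fold higher (adjusted p = 1.4e-04). CPED1-AS-4 stood at 2.77 and 4.99 CPM (at least 82.3-fold, adjusted p = 1.7e-04) and MAGI1-AS-3, after a junction scaffold, at 3.16 and 3.88 CPM (at least 72.9-fold, adjusted p = 9.9e-06), each with no count in the CP.

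On the CP side, HS3ST5-AS-1, after a heparan sulfate sulfotransferase, stood at 0.943 and 7.14 CPM in the CP (at least 112-fold lower in the VZ, adjusted p = 0.0024) and SORCS3-AS-1, after a sorting receptor of neurons, at 1.76 and 1.87 CPM (at least 43.7-fold, adjusted p = 1.2e-04), with no count in the VZ. RPL6-AS-45 stood at 2.87 and 4.08 CPM against 1 count in the VZ (ratio 259, 95% counting interval 45.9 to 10300, adjusted p = 0.04), a call that was lost when any 1 library was left out.

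Among TSDBGID features with at least 1000 counts, TSDBGID.11594 stood at 50.3 and 56.6 CPM and TSDBGID.13453 at 16.4 and 25.2 CPM in the VZ, with no count in either CP library (at least 1100-fold and 437-fold higher, adjusted p = 8e-12 and 5.9e-07). TSDBGID.16060 stood at 0.0957 and 0.0247 CPM in the VZ and at 104 and 38.9 CPM in the CP (log2 fold change −10.22 ± 0.99, adjusted p = 1.1e-07). TSDBGID.16085 stood at 0.0319 and 0 CPM, 1 count, against 4.22 and 28.3 CPM (ratio 1350, 95% counting interval 241 to 53200, adjusted p = 1.2e-04). Among the NA-named features, 5 of 111 were higher (4.5%) and 10 lower (9.01%), 13.5% in all.

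Every list of markers of cells that a cut layer could also hold had counts in both the VZ and the CP libraries. Of 10 tested features of Cajal-Retzius cell genes, 2 were lower in the VZ and none higher, and their summed level was 2.52 and 3.68 CPM in the VZ and 9.59 and 7.38 CPM in the CP. LINC-TP73-1 made up most of this, at 2.07 and 2.77 against 7.3 and 5.87 CPM (−1.44 ± 0.38, adjusted p = 0.0039, and 0.059 without VZ replicate 1), while 3 of the 10, RELN-AS-1 and RELN-AS-5 among them, had no count. Of 24 interneuron features, 4 were lower and none higher. LHX6-AS-1, SST-AS-1 and GAD1-AS-1, named after interneuron genes, were among them, each with no more than 0.615 CPM in any of the 4 libraries. All interneuron features summed to 2.93 and 2.87 CPM in the VZ and to 3.4 and 6.25 CPM in the CP.

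Of 9 endothelial and mural features, 2 were lower in the VZ, and the list summed to 0.51 and 1.26 CPM there and to 3.73 and 4 CPM in the CP. LINC-SOX17-9, after an endothelial factor, stood at 0.0638 and 0.0742 against 3.16 and 2.51 CPM (−5.28 ± 0.70, adjusted p = 5e-07). Of 6 microglial and blood features 1 was lower (4.08 and 6.23 CPM summed in the VZ, 4.92 and 22.3 CPM in the CP), and of 13 glial features of the oligodendrocyte and astrocyte list 1 was higher (1.47 and 1.83 CPM summed in the VZ, 1.19 and 1.16 CPM in the CP). Of 9 features of the choroid plexus and cortical hem list, 1 was higher. OTX2 is a factor of the choroid plexus and of early forebrain progenitors and was on this list and on the radial glial one. OTX2-AS-1 was at 9.15 and 15.3 CPM in the VZ and at 0 and 0.108 CPM in the CP (7.55 ± 1.48, adjusted p = 3.5e-04), while the whole list summed to 69.1 and 57.4 CPM in the VZ and 53.4 and 22.6 CPM in the CP. Leaving out 1 library at a time, the marker lists gave 0 to 2 (Cajal-Retzius), 3 to 4 (interneuron), 1 to 2 (endothelial) and 0 to 1 (microglial) lower features. The part of these cells in the differences between the layers was not tested.

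The other 4 layers of E28, with 2 libraries each, did not enter the comparison of the VZ with the CP, and they placed the called features along the cortical wall. Of the 363 higher LINC and antisense features, 272 (74.9%) had their highest mean in the VZ and 75 (20.7%) in the inner subventricular zone (ISVZ), and the mean fell at every step from the VZ through the ISVZ, the outer subventricular zone (OSVZ) and the intermediate zone (IZ) to the CP in 124 (34.2%). Of the 663 lower ones, 323 (48.7%) were highest in the CP, 223 (33.6%) in the MZ and 76 (11.5%) in the IZ, and 215 (32.4%) rose at every step. Over all 9780 LINC and antisense features tested with a count in the 4 libraries, 2.34% fell and 3.76% rose at every step. Their highest mean was in the VZ in 15.8%, the ISVZ in 10.5%, the IZ in 15.5%, the CP in 17.5% and the MZ in 30.2%. The MZ share of the lower features was thus close to that of all 9780, and their IZ share was below it. The choice of features by their VZ and CP levels fixes the ends of these series but not the order of the layers between.

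LINC-SOX1-1 fell from the VZ to 12.3 and 9.89 CPM in the ISVZ, 2.5 and 1.74 CPM in the OSVZ and 0.838 and 0.587 CPM in the IZ. NEUROG1-AS-1 followed the same order, with 13.6 and 12.7, 3.91 and 4.51, and 1.74 and 1.49 CPM in these layers. In both features no library of one layer overlapped with those of the next. OTX2-AS-1 reached 1.84 and 9.07 CPM in the ISVZ and at most 0.231 CPM in the OSVZ and IZ.

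On the other side the highest level was often not in the CP. PLXNA4-AS-9 stood at 103 and 149 CPM in the OSVZ and at 75.9 and 110 CPM in the IZ, above both CP libraries, and LINC-SSTR2-2 at 21.3 and 18.6 CPM in the OSVZ against 11.1 and 3.84 CPM in the CP. DLG2-AS-16 rose from 9.95 and 24.1 CPM in the ISVZ to 59.4 and 86 CPM in the OSVZ and 67.2 and 93.1 CPM in the IZ and fell to 25.1 and 29.7 CPM in the MZ. These 3 features were lowest in the VZ. No test was made between these other layers.

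**Figure D4:**
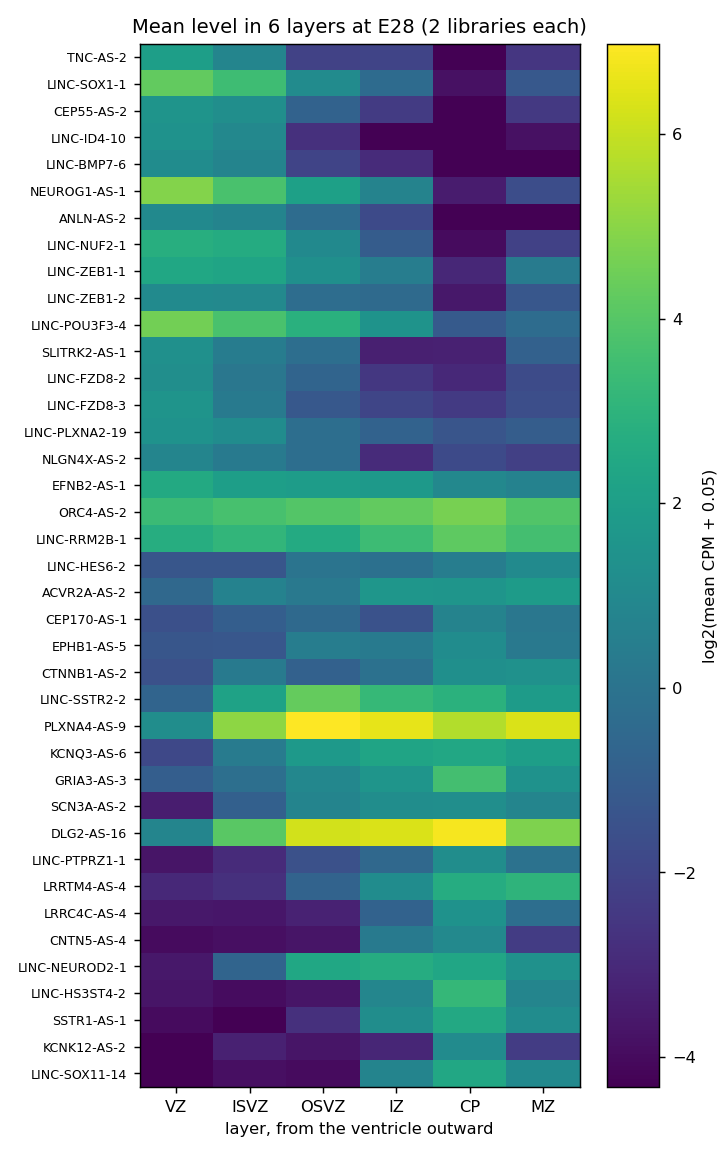
Mean level (log2 of mean CPM + 0.05, colour) of the features reported here that the rule named from 9 gene lists in the 6 layers of E28, from the ventricle outward, with 2 libraries per layer. Features higher in the VZ (upper lines) mostly fade through the ISVZ and OSVZ. Those lower in the VZ (lower lines) mostly rise farther out, some already in the ISVZ (PLXNA4-AS-9 at 32.1 and 34.2 CPM there). Some were well counted in the VZ itself (LINC-RRM2B-1 at 7.08 and 6.16 CPM).

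At E42 the VZ was compared with the CP, which was cut there as an inner part (CPi) and an outer part (CPo) with 2 libraries each and entered as their mean. This contrast shares no library with that of E28 and has 1 VZ library, whose spread was taken from the model. LINC and antisense features were called higher in the VZ in 863 of 10836 (7.96%) and lower in 238 (2.2%), 10.2% in all. The larger number lay on the VZ side at E42 and on the CP side at E28. Over all 26858 features tested, 15.5% were called higher and 11.1% lower at E42, so that all features also had more higher than lower calls there. The contrasts of E28 and E42 hold unlike numbers of libraries, so the numbers called do not show a change of side between the stages. Of the 363 features higher at E28, 224 were also higher at E42 (61.7% of the E28 calls and 26% of the E42 calls), and of the 663 lower at E28, 168 were also lower (25.3% and 70.6%). Calls on opposite sides numbered 0 and 6. Without VZ replicate 2 of E28, 161 of 235 higher and 127 of 427 lower features of E28 were called alike at E42.

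Of the 102 tested features of the radial glial and progenitor list, 39 were called higher and 1 lower in the VZ at E42, against 7.96% and 2.2% of all LINC and antisense features. LINC-PTPRZ1-1 and LINC-HES6-2, lower in the VZ at E28, had log2 fold changes of 0.82 and −0.21 at E42 and were not called there. As examples, 3 features higher in the VZ at E28 are given. LINC-SOX2-3 stood at 5.21 CPM in the VZ library of E42 and between 0.0772 and 0.193 CPM in the 4 CP libraries (adjusted p = 7.5e-07), PAX6-AS-1 at 1.48 CPM against at most 0.0177 CPM in a CP library (adjusted p = 9.9e-05), and TNC-AS-2 at 18.8 CPM against at most 0.567 CPM (adjusted p = 4e-05). For these 3 features the difference between the stages was not called (adjusted p from 0.24 to 1), which with 1 VZ library at E42 does not show that the stages were alike.

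A test of the difference between the stages called 41 LINC and antisense features with a larger (0.378%) and 177 with a smaller (1.63%) VZ minus CP value at E28 than at E42, 2.01% of 10836 in all and against 8.56% of all features. These counts moved with single libraries, to 29 and 62 without VZ replicate 1, 37 and 111 without VZ replicate 2, 30 and 119 without CP replicate 1, and 40 and 109 without CP replicate 2. They were 18 and 40 with all 36 libraries in the model, 74 and 271 with the replicate number as a block, and 72 and 268 in the DESeq2 Wald test. DLG2-AS-16, which differed so strongly at E28, stood at 19.4 CPM in the VZ and between 25.4 and 33.8 CPM in the CP libraries of E42, so that the log2 fold change was −0.67 (adjusted p = 0.46) and differed from that at E28 by −5.35 (adjusted p = 8.8e-05). LINC-PTPRZ1-1 stood at 1.98 CPM in the VZ and between 0.695 and 1.59 CPM in the CP libraries of E42, against at most 0.0319 CPM in the VZ of E28 (difference −7.02, adjusted p = 1.8e-04). LINC-ZFHX4-6 stood at 37.8 CPM in the VZ and between 26.7 and 45.9 CPM in the CP libraries of E42 (difference 3.99, adjusted p = 0.0012). In these 3 features the VZ and CP lay close together at E42 and far apart at E28.

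**Figure D5:**
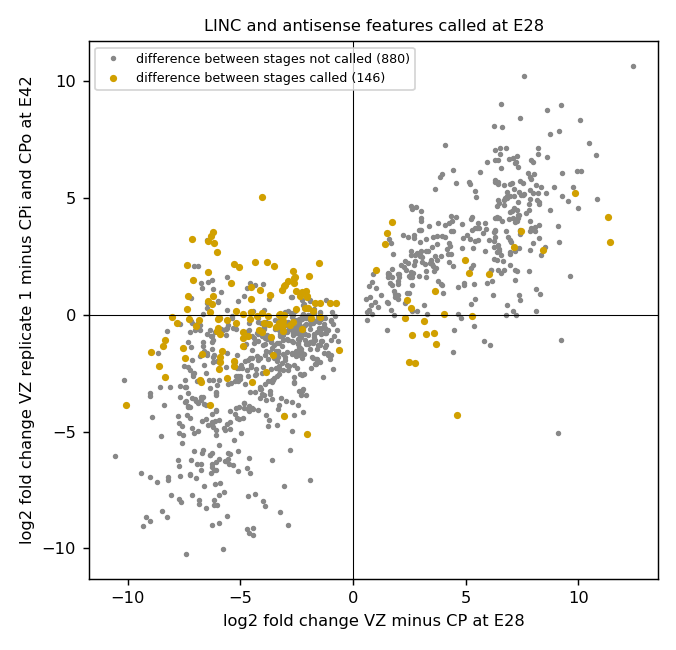
Log2 fold change between the VZ and the CP at E28 (horizontal axis) and at E42 (vertical axis, VZ replicate 1 minus the mean of CPi and CPo) for the 1026 LINC and antisense features called at E28. Gold points (146) differed between the stages at an adjusted p under 0.05 and grey points (880) did not pass. Of the 363 on the right 340 (93.7%) lie above 0 and of the 663 on the left 558 (84.2%) lie below 0 at E42. Over all 10836 LINC and antisense features tested, 52% had a value above and 44% below 0 at E42. Among features of all classes called at E28, 87.5% of the higher ones lay above and 86.8% of the lower ones below 0.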

How the data were processed

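Cortical layers were cut by laser capture from Nissl-stained sections, and poly-A RNA was sequenced. The authors aligned the reads with HISAT2, handled the alignments with SAMtools and counted reads per feature of their TS_3.0 annotation with HTSeq, and deposited raw counts for 36 libraries. The versions of SAMtools and HTSeq and the strand setting are not given in the sources used here.

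HTSeq's summary lines were removed, which left 55.29% to 58.18% of the reads of the 4 libraries on features. Of the reads 17.16% to 19.06% were ambiguous and 8.797% to 11.7% fell on no feature. The tables labelled E28 VZ replicate 2 and E42 VZ replicate 2 were identical, and the second was left out, so that the model held 35 libraries in 18 groups with 17 residual degrees of freedom. The counts of the replicates were further apart than sampling alone gives (chi-square divided by its degrees of freedom, 29.01 for the VZ pair and 53.91 for the CP pair). Features were kept by filterByExpr at a minimum count of 10, scaled by TMM and tested with edgeR 4.0.16 (R 4.3.3) by the quasi-likelihood test with Benjamini-Hochberg adjustment at 0.05. CPM uses the TMM-scaled library size, and 1 count was worth 0.0247 to 0.041 CPM in the 4 libraries. CPM values are not divided by length and are not compared between features. The pipeline was tested on simulated data. Ratios of features with 1 to 3 counts in a layer carry an exact 95% interval, and intervals and the floor of 3 counts cover counting error only.

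Members, gene lists and tests were chosen with earlier results of these data known. Some features that meet the rule below are not reported here, though the counts of lists and classes include them. Full statistics were given for all tested features of the 12 fixed genes, and, among called features whose libraries did not overlap and with at least 100 counts, for the 3 with the largest change per direction and list and the 5 per direction and class (TSDBGID features 2 per direction, at least 1000 counts). Of the 12435 gene symbols in LINC and antisense names, 10411 (83.7%) were in the RefSeq table of the species, and 0 TSDBGID identifiers were. Alternatives were the filter, the DESeq2 1.42.0 Wald test, its size factors, all 36 libraries, a replicate block, a fold threshold, the most abundant features left out, fewer libraries in the model, each library left out and either E42 CP layer alone.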

Additional observations from a re-analysis of the deposited data

Results flagged for a closer look

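A test of the difference between the stages called 2298 features whose VZ minus CP value at E28 differed from that at E42 (8.56% of those tested), in a contrast with 1 VZ library at E42. All values below are log2 fold changes at E28 minus those at E42, and fitted values of features with no count in one layer depend on the prior count.

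Some features differed less between the layers at E42, or not in a called way, on the CP side. The difference was −5.35 for DLG2-AS-16, −6.49 for LRRC4C-AS-4 (adjusted p = 0.037), −5.65 for SSTR1-AS-1 (0.032), −6.22 for LINC-GPR12-2 (0.0051), −3.32 for LINC-SOX17-9 (0.02), −1.62 for PLXNA4-AS-9 (0.014) and −1.35 for LINC-RRM2B-1 (0.046). LINC-PTPRZ1-1 (−7.02) and LINC-ZFP809-1 (−4.18, adjusted p = 0.011) had values on opposite sides of 0, with 0.82 and 1.05 at E42, neither of them called there. LINC-CDH4-2 was higher in the VZ at both stages and more so at E42 (−1.61, adjusted p = 0.036).

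On the VZ side the difference was 4.65 for LINC-SOX1-1 (adjusted p = 0.0069), 5.65 for LINC-NUF2-1 (0.033), 3.99 for LINC-ZFHX4-6, 5.31 for SLITRK2-AS-1 (0.022), 8.25 for LINC-RPL36A-30 (0.0043) and 7.13 for LINC-RPL36A-32 (0.038). LINC-SOX1-1 stood at 14.3 CPM in the VZ library of E42 and between 0.206 and 0.602 CPM in the CP libraries, so that the layers stayed apart. NLGN4X-AS-2 (4.82, adjusted p = 0.0052) was higher in the VZ at E28 and stood at 0.829 CPM in the VZ and between 2.84 and 4.4 CPM in the CP libraries of E42. TSDBGID.11594 (8.88, adjusted p = 1.4e-04) and TSDBGID.13453 (10.22, adjusted p = 0.0018) had no count in the CP at E28 and were counted in all 4 CP libraries of E42.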

How the results depend on the processing

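Of the 7276 features called at E28, the alternatives gave 5563 to 8578, and no feature called in both a given alternative and the reported model changed direction. Leaving out 1 of the 4 libraries gave 191 to 284 higher and 361 to 564 lower LINC and antisense features at E28. For the difference between the stages it gave 1554 to 2009 features, with 875 to 1134 higher and 679 to 875 lower, and for LINC and antisense features 29 to 40 higher and 62 to 119 lower. Of the 80 named features that were called, 65 stayed called without VZ replicate 1, 70 without VZ replicate 2, 73 without CP replicate 1 and 65 without CP replicate 2.

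With either CP layer of E42 alone, the 863 LINC and antisense features higher in the VZ at E42 became 466 (CPi) and 413 (CPo). The 238 lower ones became 399 in the DESeq2 Wald test and 557 with all 36 libraries. With all 36 libraries, where the shared table stands in both stages, the difference between the stages was called for 827 features (471 higher and 356 lower), of which 18 and 40 were LINC and antisense features. The DESeq2 Wald test gave 1660 higher in all, and 72 and 268 LINC and antisense features.

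The replicate number as a block gave 8578 features at E28 and, for the difference between the stages, 3780 (1868 higher and 1912 lower), with 74 and 271 LINC and antisense features. Deviations of same-numbered VZ and CP libraries correlated at 0.2157, and those of the 15 pairs of E28 layers at 0.1652 to 0.2604, but the labels do not say what the number marks, so the block was not used for pairing.

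Fitted values that turned were all of features that were not called. Leaving out 1 library gave −5.07 to 2.25 for BCL11B-AS-2, −1.58 to 5.87 for LINC-HES1-1 and −0.18 to 2.64 for LINC-HES1-3 (the turn came without CP replicate 2), −1.84 to 1.24 for LINC-HES1-5 (without CP replicate 1) and −0.41 to 0.84 for LINC-SOX2-7 (without VZ replicate 1). The cause of these changes was not tested. With 2 libraries per layer and 0.0247 to 0.041 CPM per count, LINC and antisense features of few counts are the least certain.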
